A study of Arabidopsis thaliana with 24 samples.

Results

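The 123 genes described here stood 2- to 4-fold higher with zeocin, a DNA-breaking agent, than in mock in mutant and wild-type root tips of Arabidopsis alike. They form a middle band, between genes that rose by more and genes that rose by less. They were drawn from the 33296 named genes of a read count table. A gene was kept when its mean level with zeocin was 2 to 4 times its mean level in mock in brl3-2 and in WT, when its lowest zeocin library lay above its highest mock library in each genotype, and when its zeocin mean reached at least 2 CPM (a gene's reads in every 1000000 reads of the library). Genes of the plastid and mitochondrial genomes were left out. These values chose the genes, so the zeocin responses below are a description of the set and carry no test.

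The study set 2 genotypes against 2 treatments in tips of the primary root of Arabidopsis thaliana, 6 days after germination. The groups were brl3-2 with zeocin, brl3-2 in mock, the Columbia wild type (WT) with zeocin and WT in mock, with 3 biological replicates each, 12 libraries in all. The mutant line carries an insertion in BRL3, a gene for a brassinosteroid receptor of the BRI1 family, and it was studied as 1 line. Zeocin, a bleomycin-type antibiotic that cuts both strands of DNA, was given in liquid medium for 2 h, and mock seedlings were kept in the same medium with DMSO. The labels state its dose in more than 1 way, so none is given here.

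In plants the kinases ATM and ATR sense broken or stalled DNA and phosphorylate SOG1, a transcription factor of the NAC family. SOG1 switches on genes for repair by homologous recombination, for cyclin-dependent kinase inhibitors and for other factors, and it binds a palindrome made of CTT, 7 free bases and AAG. Root tips are rich in dividing cells, where arrest of the cycle, repair of breaks and, in some stem cells, cell death are the known responses to such damage. Root tip RNA mixes many cell types, so a gene's higher level in more RNA per cell cannot be told apart from more cells that express it.

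The palindrome was looked for on both strands of the window that runs from 250 bases before to 50 bases after each annotated gene start in TAIR10.1. It was present in 26 of the 123 windows. The 6 stretches printed here show it in members whose roles recur below: a cell cycle inhibitor, a recombination protein, a WRKY factor, a cell wall enzyme, a transporter and a sieve element protein. Each runs 5′ to 3′ on the gene's own strand, and capitals mark the palindrome. They lie at chr3:6617944-6617986 for KRP6 (minus strand), chr3:6658989-6659039 for RAD54 (minus strand), chr5:9148392-9148466 for WRKY50 (minus strand), chr4:13128329-13128393 for XTR6 (plus strand), chr1:523419-523491 for ABCB11 (plus strand) and chr3:251777-251849 for SEOR1 (plus strand). Positions are counted from the gene start, with −1 the base before it.
KRP6: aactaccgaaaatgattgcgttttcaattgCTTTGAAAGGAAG
RAD54: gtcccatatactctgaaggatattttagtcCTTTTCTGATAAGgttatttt
WRKY50: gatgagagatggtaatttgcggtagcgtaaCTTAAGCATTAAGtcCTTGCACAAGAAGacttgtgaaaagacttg
XTR6: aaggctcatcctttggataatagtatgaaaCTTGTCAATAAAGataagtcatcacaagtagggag
ABCB11: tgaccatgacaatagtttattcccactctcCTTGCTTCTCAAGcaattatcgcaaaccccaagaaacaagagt
SEOR1: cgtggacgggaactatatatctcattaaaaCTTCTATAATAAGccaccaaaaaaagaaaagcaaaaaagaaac
WRKY50 carried the palindrome at 2 places, starting at −45 and −30. The KRP6 copy started at −5 and so ran across the gene start, the RAD54 copy started at −21, and the XTR6 copy at −35. In SEOR1 it started at −61 and in ABCB11 at −87.

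The folds of the members filled the whole band. In brl3-2 they ran between 2.018 and 3.973 with a median of 2.726, and in WT between 2.005 and 3.879 with a median of 2.584. Of the 123 members 45 exceeded 3-fold in brl3-2 and 25 in WT. For 73 members the folds of the genotypes lay within 1.1 times of each other, and for 110 within 1.2 times. The fold was the larger in brl3-2 for 92 members and the larger in WT for 31. By the edgeR fit the difference of responses was positive for 95 members (77.2%), against 51.4% of all genes tested. As background to the selection, edgeR's quasi-likelihood test with Benjamini-Hochberg adjustment over all 19437 genes tested called 120 members higher with zeocin in brl3-2, where 4.32% of all genes tested were called higher. In WT it called 121 members, where 4.07% of all genes were called higher. All 123 members passed the filter on low counts. All zeocin libraries lay above all mock libraries in both genotypes for 5.77% of the genes tested.

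**Figure D1:**
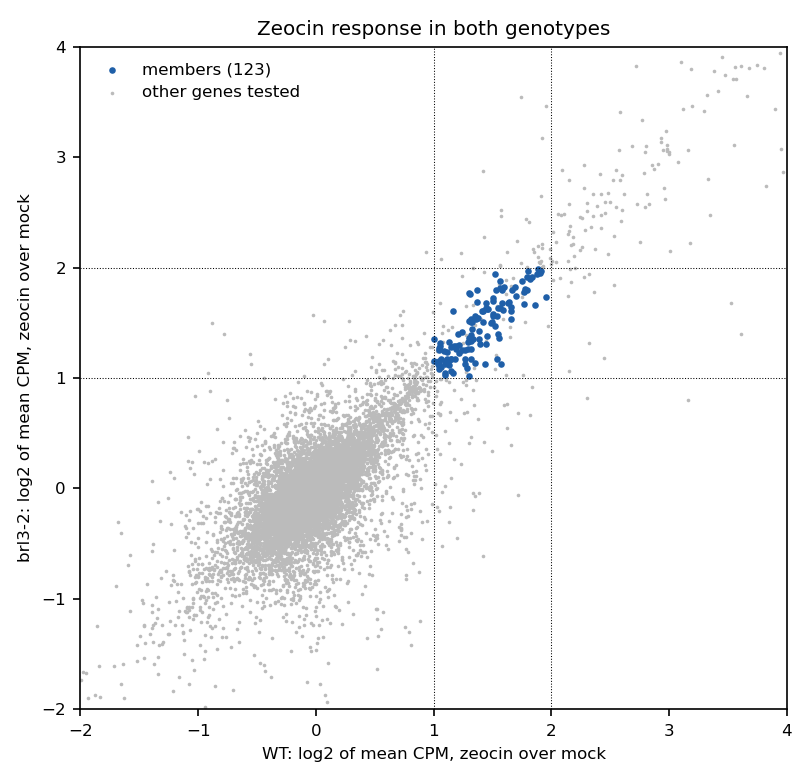
Each point is a gene, placed by the log2 of its mean CPM with zeocin over that in mock, WT on the horizontal and brl3-2 on the vertical axis, and both axes are limited to −2 to 4, so genes beyond are not drawn. The 123 members, in blue, fill the square between the dotted lines at 1 and 2, and 92 of them have the larger fold in brl3-2.

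The plot of folds shows that the set has no natural border, as the genes next to its edges show. At the lower edge the last members were AT4G39952, a pentatricopeptide repeat gene at 2.23-fold in brl3-2 and 2.005-fold in WT, AT5G66800 at 2.56-fold in brl3-2 and 2.011-fold in WT, and the ovate family gene OFP1 at 2.018-fold in brl3-2 and 2.47-fold in WT. Just outside lay AT1G14480, with a smaller fold of 1.989, the calmodulin-like gene CAM9 with 1.984 and the chaperonin gene Cpn60beta4 with 1.983. At the upper edge the last members were the meiotic axis gene ASY3, whose larger fold was 3.973, the transcription factor gene NAC053 at 3.927 and AT1G23000 at 3.907. Just outside lay PAD2, a proteasome subunit gene, at 4.022, the vitamin B6 synthesis gene PDX1.1 at 4.037 and AT2G37240 at 4.046. In all 131 nuclear genes lay over the band in both genotypes, 22 were at least 2-fold in both and over 4-fold in one, and 631 genes that lay apart in both genotypes stayed under 2-fold in both. A further 45 genes met the band in brl3-2 alone and 28 in WT alone. Each of these counts also asked for all zeocin libraries above all mock libraries and zeocin means of at least 2 CPM in both genotypes.

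The members took 0.735% to 0.866% of all reads in brl3-2 zeocin libraries and 0.286% to 0.295% in brl3-2 mock libraries. In WT they took 0.713% to 0.791% with zeocin and 0.280% to 0.292% in mock. Summed over the members, the level was 8347, 8664 and 7345 CPM in brl3-2 zeocin tips and 2864, 2947 and 2931 CPM in brl3-2 mock tips. WT tips held 7489, 7914 and 7127 CPM with zeocin and 2796, 2847 and 2921 CPM in mock. Zeocin replicate 3 was the lowest of each genotype. In brl3-2 it was the lowest of its group for 90 of the 123 members and in WT for 75, and zeocin replicate 2 was the highest for 79 members in brl3-2 and 72 in WT.

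**Figure D2:**
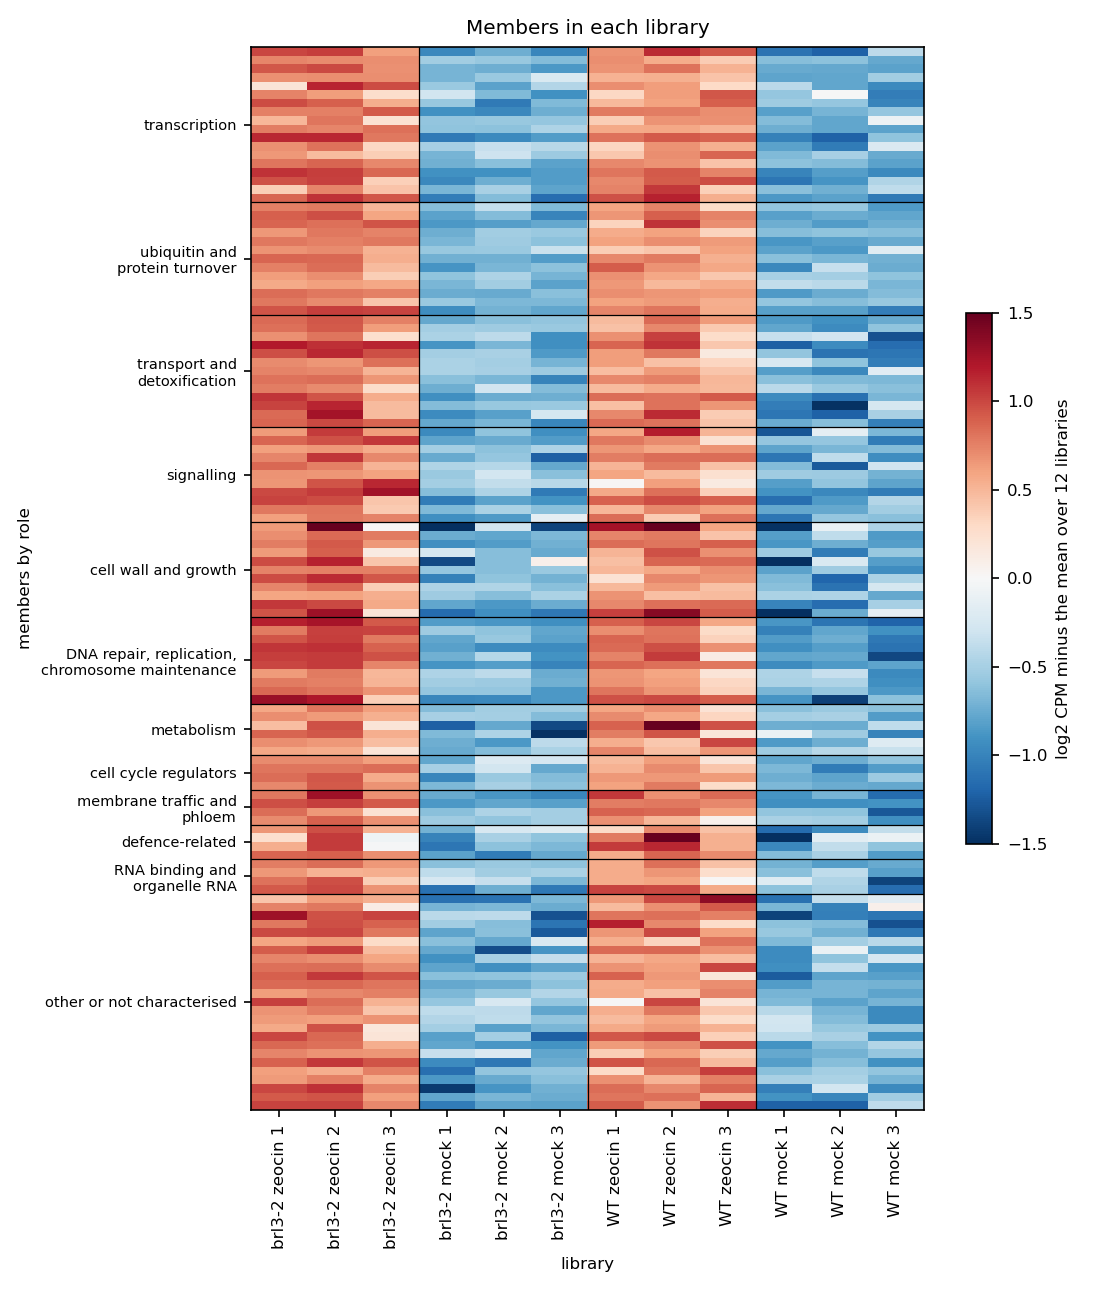
Each row is a member, grouped by role, and each column a library. The colour gives log2 CPM minus the gene's mean over the 12 libraries, limited to 1.5 either way. Zeocin columns are red and mock columns blue, apart from 2 of 738 zeocin values below and 2 of 738 mock values above the mean of their gene, and zeocin replicate 3 of each genotype is the palest for many members.

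Library totals were 32668516 to 38276389 counts in 10 libraries, and 73481046 in WT zeocin replicate 3 and 70212858 in WT mock replicate 3. BRL3 stood at 0.941 to 1.06 CPM in brl3-2 zeocin tips and 0.713 to 1.32 CPM in brl3-2 mock tips, against 21.5 to 32.0 CPM in WT zeocin tips and 9.87 to 12.2 CPM in WT mock tips, so the genotype labels and the BRL3 level agree in all 12 libraries. Markers of the root meristem and stem cell niche were all detected in every group, as were those of root cap, epidermis, xylem, endodermis and phloem. Summed shoot photosynthesis markers reached 320 CPM in brl3-2 mock replicate 2 and 40.3 to 96.1 CPM in the other 11 libraries, and their part in the values below was not tested.

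DNA repair, replication and chromosome maintenance account for 10 members. Their median fold was 3.16 in brl3-2 and 3.03 in WT. POLD4 (AT1G09815, chromosome 1, bases 3189301 to 3190242, plus strand), which encodes the small subunit of the replicative DNA polymerase delta, stood at 114, 117 and 94.5 CPM in brl3-2 zeocin tips and 30.8, 32.1 and 28.6 CPM in brl3-2 mock tips. WT tips held 104, 101 and 98.2 CPM with zeocin and 29.6, 31.4 and 32.8 CPM in mock. The lowest zeocin library was at least 2.95 times the highest mock library in each genotype, one of the widest gaps of the set. EMB2773 (AT5G15540, chromosome 5, bases 5047515 to 5057666, minus strand), the gene for the cohesin loader subunit SCC2, stood at 305, 309 and 267 CPM in brl3-2 zeocin tips and 82.1, 75.4 and 75.5 CPM in brl3-2 mock tips. WT tips held 262, 284 and 233 CPM with zeocin and 76.6, 81.8 and 67 CPM in mock. Zeocin and mock libraries were well apart, and the zeocin libraries of brl3-2 and WT overlapped.

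Proteins of meiotic and homologous recombination made up part of this group. ASY3 (AT2G46980, chromosome 2, bases 19299492 to 19304271, minus strand) belongs to the axis along which meiotic chromosomes are organised. It stood at 63.3, 66.9 and 53.6 CPM in brl3-2 zeocin tips and 15.8, 15.5 and 15 CPM in brl3-2 mock tips. WT tips held 52.5, 56.8 and 42.3 CPM with zeocin and 15.4, 13.3 and 12.3 CPM in mock. RAD54 (AT3G19210, chromosome 3, bases 6652695 to 6658988, minus strand) encodes a DNA translocase of homologous recombination. It stood at 78.3, 86 and 70.9 CPM in brl3-2 zeocin tips and 36.4, 38.2 and 30.1 CPM in brl3-2 mock tips. WT tips held 79.8, 75.5 and 57.6 CPM with zeocin and 36.6, 39.5 and 26 CPM in mock, and replicate 3 was the lowest of each group. AT4G14970 (chromosome 4, bases 8553643 to 8561664, plus strand), annotated as the FANCD2 protein of the Fanconi anaemia pathway, which repairs crosslinked DNA, stood at 35.7, 38.3 and 31.9 CPM in brl3-2 zeocin tips and 10.9, 12.6 and 10.7 CPM in brl3-2 mock tips. WT tips held 34, 32.9 and 23.6 CPM with zeocin and 10.4, 11.2 and 8.89 CPM in mock.

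RFC1 (AT5G22010, chromosome 5, bases 7280321 to 7287434, minus strand) encodes the large subunit of the clamp loader that places PCNA on DNA. It stood at 164, 162 and 136 CPM in brl3-2 zeocin tips and 66.5, 65.9 and 58.3 CPM in brl3-2 mock tips, and WT tips held 153, 147 and 119 CPM with zeocin and 68.7, 69.7 and 50.5 CPM in mock. TEJ (AT2G31870, chromosome 2, bases 13549861 to 13553844, minus strand) encodes a poly(ADP-ribose) glycohydrolase, which removes the polymers that PARP enzymes add at breaks. It stood at 26.2, 25.1 and 23.1 CPM in brl3-2 zeocin tips and 9.65, 9.65 and 7.98 CPM in brl3-2 mock tips, and WT tips held 25.2, 22.9 and 18.4 CPM with zeocin and 8.95, 9.64 and 7.96 CPM in mock. The remaining members of the group had low levels. HTR11, a histone H3 gene, averaged 8.72 ± 0.294 CPM in brl3-2 zeocin tips and 2.71 ± 0.449 CPM in brl3-2 mock tips (SD, n = 3 each here and below). WT tips averaged 6.95 ± 2.13 CPM with zeocin and 2.24 ± 0.498 CPM in mock. chr31, a chromatin remodeller of the CLASSY type that serves RNA-directed DNA methylation, averaged 8.03 ± 2.56 CPM in brl3-2 zeocin tips and 2.09 ± 0.1 CPM in brl3-2 mock tips. WT tips averaged 7.71 ± 0.215 CPM with zeocin and 2.09 ± 0.55 CPM in mock. Its brl3-2 zeocin replicate 3 held 5.09 CPM, against 9.79 and 9.21 CPM in the other two. AT1G80850, annotated as a DNA glycosylase, averaged 13.3 ± 1.24 CPM in brl3-2 zeocin tips and 4.46 ± 0.382 CPM in brl3-2 mock tips and, in WT, 10.6 ± 1.91 CPM with zeocin and 3.72 ± 0.293 CPM in mock, but 44.5% of its exon sequence is overlapped by exons of the other strand and the strand setting of the counts is not given in the sources used here.

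The cell cycle is regulated by 4 members. WEE1 (AT1G02970, chromosome 1, bases 673306 to 676419, plus strand), a kinase that puts an inhibitory phosphate on cyclin-dependent kinases when replication is disturbed, stood at 15.7, 17.9 and 15.1 CPM in brl3-2 zeocin tips and 5.97, 6.71 and 6.21 CPM in brl3-2 mock tips. WT tips held 14.4, 16.3 and 11.5 CPM with zeocin and 5.96, 5.68 and 5.58 CPM in mock. KRP6 (AT3G19150, chromosome 3, bases 6616330 to 6617951, minus strand), an inhibitor of cyclin-dependent kinases of the KRP family and the bearer of a palindrome across its start, stood at 33.1, 35.5 and 27.3 CPM in brl3-2 zeocin tips and 9.45, 12.6 and 11.8 CPM in brl3-2 mock tips. WT tips held 29.1, 29.1 and 29 CPM with zeocin and 11.2, 10.7 and 12.7 CPM in mock. The WT zeocin libraries of KRP6 had a coefficient of variation of 0.251%, the smallest of any member in that group, whereas the median over members was 12.8%.

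FZR2 (AT4G22910, chromosome 4, bases 12012408 to 12016012, plus strand), an activator of the anaphase-promoting complex that drives the switch to endoreduplication, stood at 35.2, 35.2 and 36.1 CPM in brl3-2 zeocin tips and 14.3, 16.7 and 11.9 CPM in brl3-2 mock tips. WT tips held 28.9, 32.9 and 27 CPM with zeocin and 12.7, 9.76 and 11.3 CPM in mock. Every brl3-2 zeocin library of FZR2 lay above every WT zeocin library. Such separation of the genotypes, here and below, is description only. How many members, or how many of all genes tested, show it was not counted. CYCA1;1 (AT1G44110, chromosome 1, bases 16774765 to 16777352, minus strand), a mitotic A-type cyclin, stood at 8.57, 8.55 and 8.05 CPM in brl3-2 zeocin tips and 3.06, 4.55 and 4.4 CPM in brl3-2 mock tips. WT tips held 7.29, 8.09 and 5.96 CPM with zeocin and 3.05, 3.14 and 3.48 CPM in mock. CYCA1;1 and FZR2 had the smaller fold in brl3-2, and WEE1 and KRP6 in WT. Summed markers of the root meristem and niche stood at 103 to 112 CPM in brl3-2 zeocin tips and 114 to 135 CPM in brl3-2 mock tips. In WT they stood at 105 to 112 CPM with zeocin and 122 to 127 CPM in mock. Of the 6 markers 2 fell in brl3-2 and 0 in WT, and their part in the values of the cycle genes was not tested.

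**Figure D3:**
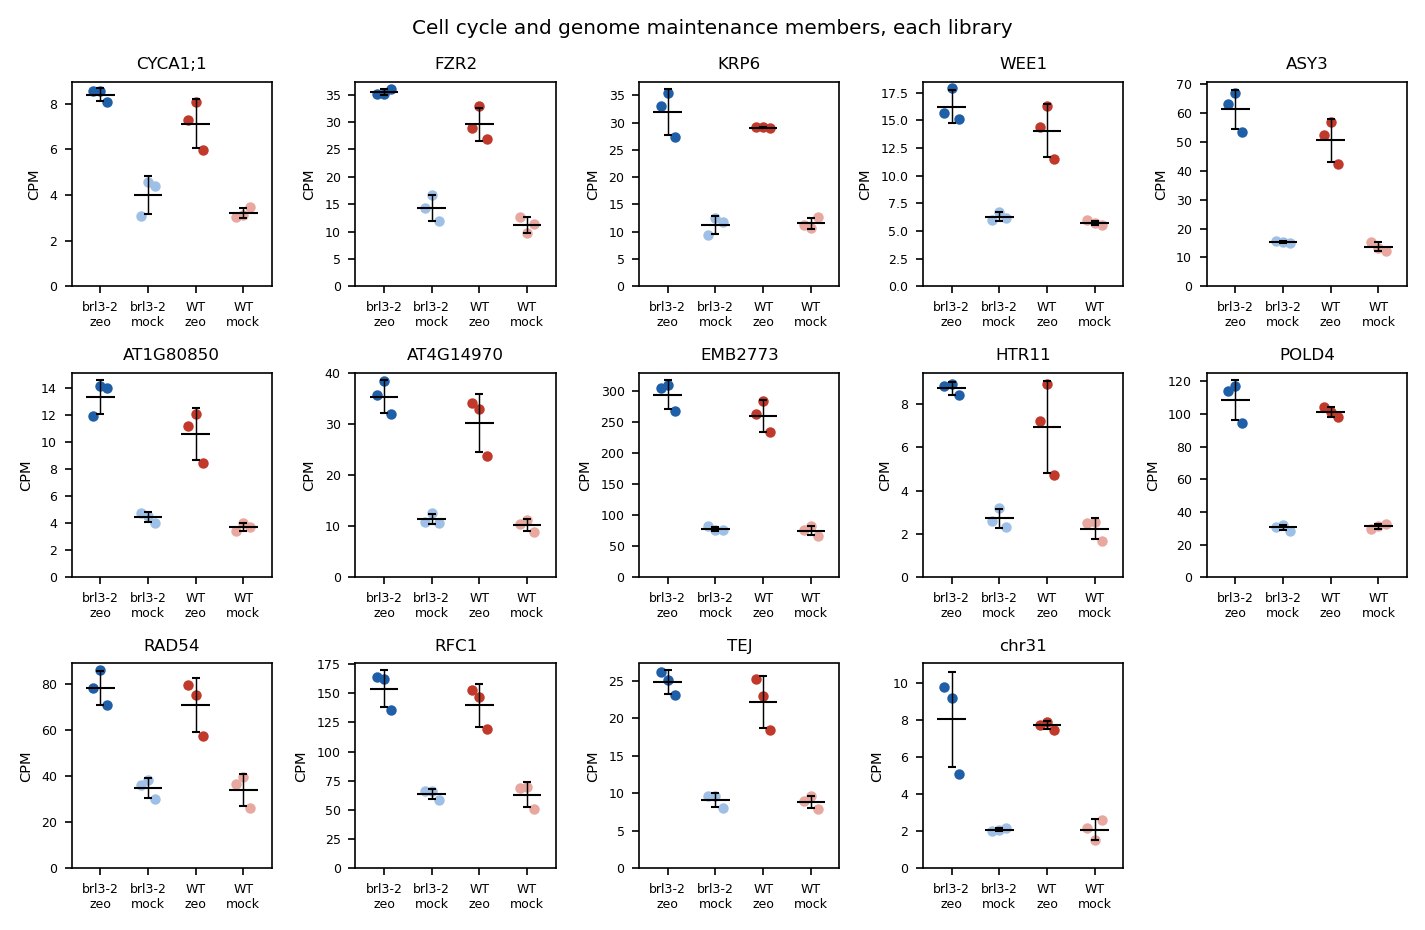
Points are CPM in each of the 3 libraries of a group, in order of replicate, lines are the mean and bars the SD, for the 4 cell cycle members followed by the 10 members of genome maintenance. Zeocin points lie above mock points in each genotype for all 14 genes, as the rule demands, and zeocin replicate 3 is often the lowest.

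The same functions hold many genes outside the band, and the plot of the cycle and maintenance genes shows only those within it. Pathway lists of 248 loci were compared with the set, of which 228 were tested. They hold 10 members and 23 genes over the band in both genotypes. Among 31 genes of homologous recombination and resection 2 were members (RAD54 and AT4G14970) and 6 lay over the band. In each genotype 11 of the 31 rose by edgeR's adjusted p, with a list median log2 change of 0.24 in brl3-2 and 0.19 in WT, against −0.00 and −0.01 over all genes tested. Of all genes tested 4.32% were called higher in brl3-2 and 4.07% in WT. These shares stand beside every count of list genes that rose, here and below. Those over the band included BRCA1 (log2 5.70 in brl3-2 and 5.53 in WT), XRI1 (5.09 and 4.80), COM1 (4.73 and 4.49), the cohesin subunit gene SYN2 (3.86 and 3.65) and MND1 (2.89 and 2.83). RAD54 stood at 1.20 in brl3-2 and 1.10 in WT.

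Among 21 checkpoint and cell cycle brake genes 9 rose in each genotype, against 4.32% of all genes tested in brl3-2 and 4.07% in WT. Members were WEE1 (log2 1.40 in brl3-2 and 1.32 in WT) and KRP6 (1.54 and 1.35). Over the band lay 4 genes, the kinase inhibitor genes SMR7 (8.71 and 9.02) and SMR4 (5.83 and 5.44), the transcription factor gene NAC044 (3.82 and 3.45) and the clamp loader gene RAD17 (3.21 and 2.96). Of 14 mitotic cyclin and G2/M genes CYCB1;1 (3.74 and 3.58) and CYCA1;1 (1.10 and 1.15) rose, and the list median was −0.02 in brl3-2 and −0.01 in WT. Lists without a member still held genes that rose. They were deoxynucleotide supply, RPA and replication (9 of 22 in brl3-2 and 11 in WT), excision, mismatch and translesion repair (2 of 30 in each) and end joining with PARP genes (2 of 10 in brl3-2, and in WT 3 that rose and 1 that fell). The list of auxin response had 0 members, with 2 genes that rose and 1 that fell among 13 in brl3-2 and 2 that rose and 2 that fell in WT. In the lists of touch and abiotic stress, gene silencing and autophagy, also with 0 members, 1 of 11, 2 of 10 and 2 of 8 rose in brl3-2 and 2, 2 and 1 in WT. The calls used the contrast that defines the set, so these counts place the members in their pathways and show nothing more.

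Transcription is controlled by 18 members, with a median fold of 2.77 in brl3-2 and 2.49 in WT. By words in the annotated product, 15 members (12.2%) fell in the class of transcription factors, against 4.59% of all genes tested. Ubiquitin and proteolysis held 6.50%, against 5.36%, and kinases and phosphatases 7.32%, against 6.68%. Cell wall and lipid enzymes held 4.88%, against 3.22%, and DNA repair, helicase and nuclease 3.25%, against 1.88%. Immune receptors and defence held 3.25%, against 1.65%. Transporters and channels held 0.813%, against 2.91%, and oxidoreductases and detoxification 3.25%, against 4.94%. The roles used here are not these classes, and no class was tested. NAC053 (AT3G10500, chromosome 3, bases 3271217 to 3274176, plus strand), a membrane-bound factor that activates proteasome genes when protein breakdown is blocked, stood at 169, 169 and 134 CPM in brl3-2 zeocin tips and 37.1, 39.8 and 43.1 CPM in brl3-2 mock tips. WT tips held 136, 146 and 143 CPM with zeocin and 38.1, 33.4 and 50.9 CPM in mock. TFIIB (AT2G41630, chromosome 2, bases 17355299 to 17357622, minus strand) encodes a general initiation factor of RNA polymerase II. It stood at 605, 637 and 573 CPM in brl3-2 zeocin tips and 210, 224 and 198 CPM in brl3-2 mock tips, and WT tips held 573, 552 and 468 CPM with zeocin and 226, 220 and 199 CPM in mock. Per kb of exon TFIIB had the highest level of all members, with 427 CPM per kb in brl3-2 zeocin tips and 149 in brl3-2 mock tips. WT tips held 375 CPM per kb with zeocin and 152 in mock.

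Of 17 listed WRKY factors, which bind W boxes and are best known from immunity, 3 were members. WRKY25 (AT2G30250, chromosome 2, bases 12903208 to 12905338, minus strand) stood at 103, 108 and 67.7 CPM in brl3-2 zeocin tips and 27.2, 32 and 29.7 CPM in brl3-2 mock tips. WT tips held 87.5, 99.2 and 104 CPM with zeocin and 25, 28.6 and 38.9 CPM in mock. WRKY33 (AT2G38470, chromosome 2, bases 16108235 to 16110766, plus strand), a regulator of camalexin synthesis, stood at 61.7, 79.1 and 63.8 CPM in brl3-2 zeocin tips and 29.6, 33.9 and 27.6 CPM in brl3-2 mock tips. WT tips held 79.6, 99.2 and 60.8 CPM with zeocin and 30.9, 29 and 36.5 CPM in mock. WRKY50 (AT5G26170, chromosome 5, bases 9146879 to 9148391, minus strand), the gene with 2 palindromes shown above, stood at 10.3, 11.9 and 10.7 CPM in brl3-2 zeocin tips and 2.73, 3.56 and 2.54 CPM in brl3-2 mock tips. WT tips held 10.9, 12.5 and 8.18 CPM with zeocin and 3.08, 3.2 and 2.68 CPM in mock. For WRKY33 the highest zeocin value, 99.2 CPM, was in a WT library. WRKY46 lay over the band (log2 2.87 in brl3-2 and 2.45 in WT). Of the 17 factors 4 rose in brl3-2 and 6 in WT, against 4.32% and 4.07% of all genes tested.

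Other transcription members spanned the band. TPR3, a co-repressor of the TOPLESS family, averaged 270 ± 21 CPM in brl3-2 zeocin tips and 73.3 ± 2.25 CPM in brl3-2 mock tips. WT tips averaged 239 ± 15.1 CPM with zeocin and 71.3 ± 4.46 CPM in mock. HAM3, a GRAS factor of meristem maintenance, averaged 76.3 ± 2.78 CPM in brl3-2 zeocin tips and 30.3 ± 1.69 CPM in brl3-2 mock tips. WT tips averaged 65.3 ± 1.85 CPM with zeocin and 26.2 ± 0.679 CPM in mock, and the smallest brl3-2 zeocin value, 73.8 CPM, exceeded the largest WT zeocin value, 66.6 CPM. Folds were 3.44-fold in brl3-2 and 3.41-fold in WT for ANAC087, a NAC factor of programmed cell death in the root cap. For DREB2C, a drought- and heat-related factor, they were 3.20-fold in brl3-2 and 2.72-fold in WT. ERF5 was 2.14-fold in brl3-2 and 2.09-fold in WT, NAC083 2.06-fold in brl3-2 and 2.24-fold in WT, the GRAS gene AT3G46600 3.11-fold in brl3-2 and 2.72-fold in WT and the bZIP gene AT1G06070 2.46-fold in brl3-2 and 2.33-fold in WT. Of the listed stress NAC factors NAC053 and NAC103 (log2 4.90 in brl3-2 and 5.32 in WT) rose, and of 10 ERF factors of wounding and regeneration 2 rose in each genotype. Near the lower edge AT4G16750, an AP2-type gene, averaged 2.02 ± 0.338 CPM in brl3-2 zeocin tips and 0.91 ± 0.201 CPM in brl3-2 mock tips and, in WT, 2.15 ± 0.457 CPM with zeocin and 0.986 ± 0.355 CPM in mock.

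Protein turnover supplied 13 members, with a median fold of 2.61 in brl3-2 and 2.57 in WT. They include ubiquitin ligases, a conjugating enzyme and a deubiquitinating enzyme. RGLG2 (AT5G14420, chromosome 5, bases 4648081 to 4651442, minus strand), a RING ligase, stood at 184, 178 and 175 CPM in brl3-2 zeocin tips and 61.4, 60.9 and 66.7 CPM in brl3-2 mock tips. WT tips held 168, 164 and 160 CPM with zeocin and 57.3, 61.4 and 66 CPM in mock. UBP21 (AT5G46740, chromosome 5, bases 18965271 to 18968798, minus strand), a ubiquitin-specific protease, stood at 29.6, 31.7 and 31.1 CPM in brl3-2 zeocin tips and 8.11, 9.47 and 9.02 CPM in brl3-2 mock tips. WT tips held 25.6, 26.9 and 22.8 CPM with zeocin and 8.8, 8.79 and 7.55 CPM in mock, so every brl3-2 zeocin library lay above every WT zeocin library, while mock libraries of the genotypes overlapped.

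AT5G20000 (chromosome 5, bases 6756633 to 6759800, plus strand) encodes an ATPase of the proteasome base. It stood at 293, 290 and 232 CPM in brl3-2 zeocin tips and 96.5, 96.6 and 89.1 CPM in brl3-2 mock tips, and WT tips held 263, 274 and 231 CPM with zeocin and 103, 99 and 97.1 CPM in mock. A stretch of 59.1% of its transcript is near-identical to RPT6A, so reads may have been shared between the pair. Among F-box genes AT4G27050 was 2.51-fold in brl3-2 and 2.19-fold in WT, AT4G33160 2.61-fold in brl3-2 and 2.74-fold in WT and AT5G22660 2.69-fold in brl3-2 and 2.61-fold in WT. The U-box gene PUB26 was 2.38-fold in brl3-2 and 2.06-fold in WT, the conjugating enzyme gene AT1G53025 3.10-fold in brl3-2 and 2.92-fold in WT and the BTB gene AT1G55760 3.25-fold in brl3-2 and 2.83-fold in WT. The ubiquitin-like gene SAY1 was 2.44-fold in brl3-2 and 2.28-fold in WT, the RING gene AT5G10650 2.18-fold in brl3-2 and 2.06-fold in WT, the subtilase gene AT1G30600 2.34-fold in brl3-2 and 2.33-fold in WT and the M48 peptidase gene AT5G51740 2.23-fold in brl3-2 and 2.14-fold in WT.

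Transport and detoxification also gave 13 members, with a median fold of 2.85 in brl3-2 and 2.74 in WT. The palindrome was present in 5 of them, the ABC transporter gene ABCB11, both glutathione transferase genes, AT1G23000 and AT3G60070. ABCB11 (AT1G02520, chromosome 1, bases 523536 to 529069, plus strand) stood at 385, 411 and 336 CPM in brl3-2 zeocin tips and 153, 150 and 148 CPM in brl3-2 mock tips. WT tips held 294, 358 and 286 CPM with zeocin and 127, 113 and 143 CPM in mock. ABCB1 (AT2G36910, chromosome 2, bases 15501726 to 15507501, plus strand), an auxin efflux carrier, stood at 297, 313 and 277 CPM in brl3-2 zeocin tips and 96.5, 106 and 109 CPM in brl3-2 mock tips. WT tips held 229, 295 and 255 CPM with zeocin and 91.3, 87.8 and 97.2 CPM in mock. ABCC3, an ABC transporter gene of the C subfamily, stood at 290, 314 and 215 CPM in brl3-2 zeocin tips and 130, 137 and 95.2 CPM in brl3-2 mock tips. WT tips held 289, 366 and 219 CPM with zeocin and 142, 148 and 73.1 CPM in mock, with replicate 3 lowest in all groups.

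GSTU25 (AT1G17180, chromosome 1, bases 5872024 to 5873124, plus strand), which like GSTU22 joins glutathione to reactive compounds, stood at 155, 205 and 120 CPM in brl3-2 zeocin tips and 44.9, 48.9 and 71.9 CPM in brl3-2 mock tips. WT tips held 142, 187 and 112 CPM with zeocin and 40.6, 37.2 and 61.7 CPM in mock. GSTU22 averaged 134 ± 31.1 CPM in brl3-2 zeocin tips and 47.7 ± 1.71 CPM in brl3-2 mock tips. WT tips averaged 112 ± 14.1 CPM with zeocin and 40.1 ± 17.8 CPM in mock. For both transferase genes WT mock replicate 3, one of the deeper libraries, was the highest WT mock library. The highest brl3-2 mock library was likewise replicate 3 for both, and it was not among the deeper ones. DND1, a cyclic nucleotide-gated calcium channel whose loss alters defence, averaged 72.6 ± 12.7 CPM in brl3-2 zeocin tips and 22.8 ± 1.59 CPM in brl3-2 mock tips. WT tips averaged 71.8 ± 2.74 CPM with zeocin and 21.1 ± 3.23 CPM in mock. The sugar transporter-like gene SGB1 averaged 82.2 ± 4.04 CPM in brl3-2 zeocin tips and 24.9 ± 2.5 CPM in brl3-2 mock tips. WT tips averaged 71.4 ± 10.9 CPM with zeocin and 25.1 ± 3.37 CPM in mock. The peroxidase gene AT2G43480 was 3.08-fold in brl3-2 and 2.74-fold in WT and the cytochrome P450 gene CYP89A9 2.22-fold in brl3-2 and 2.06-fold in WT. The nucleobase permease gene AT5G49990 was 2.90-fold in brl3-2 and 2.49-fold in WT, AT3G60070 of the major facilitator family 2.25-fold in brl3-2 and 2.17-fold in WT, and the heavy metal-binding genes AT1G23000 and AT3G24450 were 3.91-fold in brl3-2 and 3.76-fold in WT, and 2.44-fold in brl3-2 and 2.08-fold in WT.

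Cell wall and growth account for 11 members, with a median fold of 2.85 in brl3-2 and 2.70 in WT. XTR6 (AT4G25810, chromosome 4, bases 13128394 to 13129927, plus strand), a xyloglucan endotransglycosylase that cuts and rejoins wall polymers, stood at 49.8, 62.5 and 29.6 CPM in brl3-2 zeocin tips and 11.6, 13.7 and 12.3 CPM in brl3-2 mock tips. WT tips held 52.9, 66.8 and 48.7 CPM with zeocin and 8.03, 15.5 and 23.6 CPM in mock, a wide scatter in mock. EXPA14 (AT5G56320, chromosome 5, bases 22808641 to 22810747, plus strand), an expansin that loosens walls, stood at 32.4, 35.6 and 31.3 CPM in brl3-2 zeocin tips and 8.14, 10.8 and 10 CPM in brl3-2 mock tips. WT tips held 19.1, 27.1 and 26 CPM with zeocin and 10.4, 7.19 and 11.8 CPM in mock, and all brl3-2 zeocin libraries lay above all WT zeocin libraries. EXO (AT4G08950, chromosome 4, bases 5740219 to 5741591, plus strand), a growth gene known to respond to brassinosteroids, stood at 189, 191 and 191 CPM in brl3-2 zeocin tips and 75.2, 72.2 and 76.7 CPM in brl3-2 mock tips. WT tips held 160, 169 and 183 CPM with zeocin and 64.9, 77.9 and 59.4 CPM in mock, and the brl3-2 zeocin libraries were again all the higher, while mock libraries overlapped.

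XTH28, of the same enzyme family as XTR6, averaged 39 ± 6.79 CPM in brl3-2 zeocin tips and 12.1 ± 0.462 CPM in brl3-2 mock tips. WT tips averaged 36.5 ± 1.75 CPM with zeocin and 11.7 ± 2.85 CPM in mock. The galactan synthase gene GALS3 was 2.18-fold in brl3-2 and 2.14-fold in WT, and 21.7% of its transcript is near-identical to AT5G48190. The formin gene FH4 was 2.26-fold in brl3-2 and 2.22-fold in WT, and the hydroxyproline-rich glycoprotein genes AT1G63720 and AT1G72790 were 2.85-fold in brl3-2 and 2.50-fold in WT, and 3.04-fold in brl3-2 and 3.15-fold in WT. The exostosin gene AT2G31990 was 2.18-fold in brl3-2 and 2.70-fold in WT and the invertase inhibitor-like gene AT2G47670 2.64-fold in brl3-2 and 2.93-fold in WT. The glycine-rich gene AT1G07135 scattered widely, at 3.76, 7.03 and 2.43 CPM in brl3-2 zeocin tips and 0.535, 1.98 and 0.917 CPM in brl3-2 mock tips. WT tips held 5.72, 8.75 and 3.63 CPM with zeocin and 0.859, 2.23 and 1.74 CPM in mock, so that each second library was the highest of its group.

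Signalling genes numbered 11, with a median fold of 2.56 in brl3-2 and 2.55 in WT. AT3G15240 (chromosome 3, bases 5133444 to 5136032, plus strand), annotated as a kinase of the WNK type, stood at 156, 165 and 177 CPM in brl3-2 zeocin tips and 49.1, 50.3 and 47.5 CPM in brl3-2 mock tips. WT tips held 147, 139 and 99.6 CPM with zeocin and 56.9, 57.1 and 41.3 CPM in mock, so every brl3-2 zeocin library was the higher and the mock libraries overlapped. CLE17 (AT1G70895, chromosome 1, bases 26727555 to 26729374, plus strand) encodes a small secreted peptide of the CLAVATA3 family. It stood at 7.76, 8.09 and 9.35 CPM in brl3-2 zeocin tips and 2.5, 2.82 and 1.87 CPM in brl3-2 mock tips, and WT tips held 5.79, 6.93 and 4.99 CPM with zeocin and 2.1, 2 and 1.89 CPM in mock, again with the brl3-2 zeocin libraries all above those of WT. MKK9, a MAP kinase kinase, averaged 44.2 ± 2.8 CPM in brl3-2 zeocin tips and 17.8 ± 5.7 CPM in brl3-2 mock tips. WT tips averaged 43.5 ± 7.35 CPM with zeocin and 16 ± 2.89 CPM in mock. ACS6, a rate-limiting enzyme of ethylene synthesis, was 3.04-fold in brl3-2 and 2.67-fold in WT.

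Calcium signalling was represented by the calmodulin-like gene CML11 (3.34-fold in brl3-2 and 3.25-fold in WT), the EF-hand gene AT4G27280 (3.21-fold in brl3-2 and 2.99-fold in WT) and the calmodulin-binding scaffold gene IQD23 (2.40-fold in brl3-2 and 2.45-fold in WT). The phosphatase gene AT3G17250 was 2.20-fold in brl3-2 and 2.55-fold in WT, and the kinase genes AT4G35030 and AT5G50330 were 2.39-fold in brl3-2 and 2.40-fold in WT, and 2.19-fold in brl3-2 and 2.05-fold in WT. AT5G66800, related to membrane-associated kinase regulators, had few reads, at 3.73, 4.55 and 5.17 CPM in brl3-2 zeocin tips and 1.66, 1.83 and 1.77 CPM in brl3-2 mock tips. WT tips held 2.39, 3.61 and 2.59 CPM with zeocin and 1.33, 1.57 and 1.37 CPM in mock. Defence-related members were 4. The TIR-NBS gene AT5G40090 was 3.22-fold in brl3-2 and 2.58-fold in WT, the TIR gene AT2G20142 2.25-fold in brl3-2 and 2.91-fold in WT, the lectin gene AT1G78860 2.13-fold in brl3-2 and 2.43-fold in WT and the lectin gene AT5G18470 2.57-fold in brl3-2 and 2.94-fold in WT. Exons of the other strand overlap 73.9% of AT5G18470. None of the 10 jasmonate genes and 7 salicylic acid genes tested was a member, and of these 0 and 1 rose in each genotype.

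Among membrane traffic and phloem members, GC4 (AT2G46180, chromosome 2, bases 18967269 to 18971409, minus strand), a Golgi matrix protein, stood at 141, 148 and 136 CPM in brl3-2 zeocin tips and 39.5, 41.8 and 40.8 CPM in brl3-2 mock tips. WT tips held 122, 124 and 118 CPM with zeocin and 38, 37.9 and 38.7 CPM in mock, with little scatter and with all brl3-2 zeocin libraries the higher. SEOR1 (AT3G01680, chromosome 3, bases 251868 to 255513, plus strand) encodes a protein that fills sieve elements of the phloem. It averaged 73.4 ± 15.1 CPM in brl3-2 zeocin tips and 33.5 ± 2.01 CPM in brl3-2 mock tips, and WT tips averaged 83.8 ± 8.74 CPM with zeocin and 28.1 ± 6.95 CPM in mock. Its folds, 2.19-fold in brl3-2 and 2.98-fold in WT, differed more than those of any other member with the larger fold in WT. The phloem marker list, which contains SEOR1, summed to 98.3 to 136 CPM in brl3-2 zeocin tips and 74.1 to 87.8 CPM in brl3-2 mock tips. In WT the sum was 118 to 147 CPM with zeocin and 55.7 to 90.2 CPM in mock. Of its 4 genes 2 rose in each genotype, none was at 0, and the part of phloem cells in the SEOR1 values was not tested. The synaptobrevin gene VAMP728 was 2.49-fold in brl3-2 and 2.08-fold in WT. AT1G13340, related to regulators of vesicle sorting, averaged 2.31 ± 0.524 CPM in brl3-2 zeocin tips and 0.661 ± 0.0507 CPM in brl3-2 mock tips, and WT tips averaged 2.21 ± 0.286 CPM with zeocin and 0.645 ± 0.1 CPM in mock.

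Metabolic members were 6. MCCB (AT4G34030, chromosome 4, bases 16301027 to 16304099, plus strand), a subunit of the carboxylase that degrades leucine, stood at 578, 557 and 488 CPM in brl3-2 zeocin tips and 213, 196 and 270 CPM in brl3-2 mock tips. WT tips held 518, 471 and 714 CPM with zeocin and 197, 214 and 310 CPM in mock, and the WT libraries numbered 3, which were also the deepest, were the highest of their groups. In brl3-2, where replicate 3 was not among the deeper libraries, it was the highest in mock and the lowest with zeocin. The part of depth in these values was not tested. DLAH, a lipase-like hydrolase, averaged 9.06 ± 2.52 CPM in brl3-2 zeocin tips and 2.85 ± 0.626 CPM in brl3-2 mock tips. WT tips averaged 14.5 ± 5.17 CPM with zeocin and 3.98 ± 0.591 CPM in mock. LPR1, a ferroxidase by which root tips sense low phosphate, had few reads, averaging 2.37 ± 0.334 CPM in brl3-2 zeocin tips and 0.78 ± 0.26 CPM in brl3-2 mock tips. WT tips averaged 2.17 ± 0.555 CPM with zeocin and 0.966 ± 0.296 CPM in mock. The sugar kinase gene AT1G66430 was 2.35-fold in brl3-2 and 2.16-fold in WT, the glycerol kinase-annotated gene AT4G38225 2.26-fold in brl3-2 and 2.22-fold in WT and the tyrosine aminotransferase gene TAT7 2.12-fold in brl3-2 and 2.06-fold in WT. The 4 RNA-binding and organelle RNA members were AT5G51730 (3.54-fold in brl3-2 and 3.02-fold in WT), AT3G07810 (2.55-fold in brl3-2 and 2.61-fold in WT) and the pentatricopeptide repeat genes AT3G18020 (2.04-fold in brl3-2 and 2.14-fold in WT) and AT4G39952.

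The last 25 members have other or no assigned roles, with a median fold of 2.91 in brl3-2 and 2.59 in WT. AT5G27760, annotated as hypoxia-responsive, averaged 221 ± 14 CPM in brl3-2 zeocin tips and 60.1 ± 7.16 CPM in brl3-2 mock tips. WT tips averaged 193 ± 31.8 CPM with zeocin and 65.5 ± 6.37 CPM in mock. TZP, a zinc knuckle protein of light-regulated growth, averaged 116 ± 14.2 CPM in brl3-2 zeocin tips and 39.1 ± 1.27 CPM in brl3-2 mock tips. WT tips averaged 107 ± 12.5 CPM with zeocin and 37.7 ± 6.64 CPM in mock. AT1G02380 had the largest WT fold of the set, 3.32-fold in brl3-2 and 3.88-fold in WT. AT5G65300 was 3.84-fold in brl3-2 and 2.87-fold in WT, ZCF37 3.47-fold in brl3-2 and 3.46-fold in WT, AT1G12020 3.48-fold in brl3-2 and 2.89-fold in WT and AT1G29640 3.48-fold in brl3-2 and 2.59-fold in WT. The WD40 repeat gene AT3G27640 was 2.95-fold in brl3-2 and 2.90-fold in WT and the uncharacterised AT5G18130 3.04-fold in brl3-2 and 2.66-fold in WT. The methyltransferase-annotated gene AT1G01180 was 2.44-fold in brl3-2 and 2.25-fold in WT, AT5G28610, annotated as similar to an RNA helicase, 2.62-fold in brl3-2 and 2.50-fold in WT and AT5G47050, annotated as related to a ribonuclease-binding protein, 2.64-fold in brl3-2 and 2.31-fold in WT. The other 13 lay between 2.06- and 3.08-fold in both genotypes.

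No member passed the adjusted test between genotypes, including those whose brl3-2 zeocin libraries all lay above the WT zeocin libraries. The rule used no contrast of genotypes, but it drew on the same 12 libraries and bounds how far the responses of the genotypes can differ, so this test is not independent of the choice of members. In mock, edgeR's quasi-likelihood test called 0 of 123 members for brl3-2 against WT, where 0.0257% of all genes were called (5 of 19437). At an unadjusted p under 0.05 there were 4 members (3.25%, against 3.97% of all genes), and DESeq2 called 0. They were HAM3 (log2 0.19 ± 0.07, SE), FZR2 (0.32 ± 0.12), AT4G33160 (0.18 ± 0.08) and AT1G02380 (0.48 ± 0.22), all higher in brl3-2, each with an edgeR adjusted p of 1. Of the 123 members 66 had the higher mock level in brl3-2 (53.7%, against 48.9% of all genes), and the median log2 difference was 0.01.

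Under zeocin more members stood higher than lower in the mutant, by little. All members share the same zeocin libraries, which also chose them, so members are not replicates of a genotype. The counts of members by direction, in all and by role, are description and were not tested. The median log2 difference of brl3-2 over WT was 0.12, with a range of −0.68 to 0.64, against a median of 0.00 over all genes tested. The level was higher in brl3-2 for 91 of 123 members (74.0%, against 50.8% of all genes). By role, it was higher in brl3-2 for all 10 genome maintenance members, all 4 cycle members, 12 of the 13 in transport and detoxification, 11 of the 13 in protein turnover, 12 of the 18 in transcription, 8 of the 11 in signalling and 7 of the 11 in cell wall and growth. It was higher for 3 of the 4 members in membrane traffic and phloem, 3 of the 4 in RNA binding, 3 of the 6 in metabolism, 2 of the 4 in defence and 16 of the other 25. Roles were assigned after the values were seen, and no role was tested against the rest. edgeR called 0 of 123 members at an adjusted p under 0.05, where 0.0412% of all genes were called (8 of 19437), and DESeq2 called 0. At an unadjusted p under 0.05 there were 20 members (16.3%, against 2.12% of all genes), of which 19 stood higher in brl3-2. The number depended on single libraries: it was 10 without brl3-2 zeocin replicate 1, 10 without brl3-2 zeocin replicate 2, and 12 without WT zeocin replicate 3. The number of members higher in brl3-2 was 107 without brl3-2 zeocin replicate 3 and 77 without brl3-2 zeocin replicate 2.

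**Figure D4:**
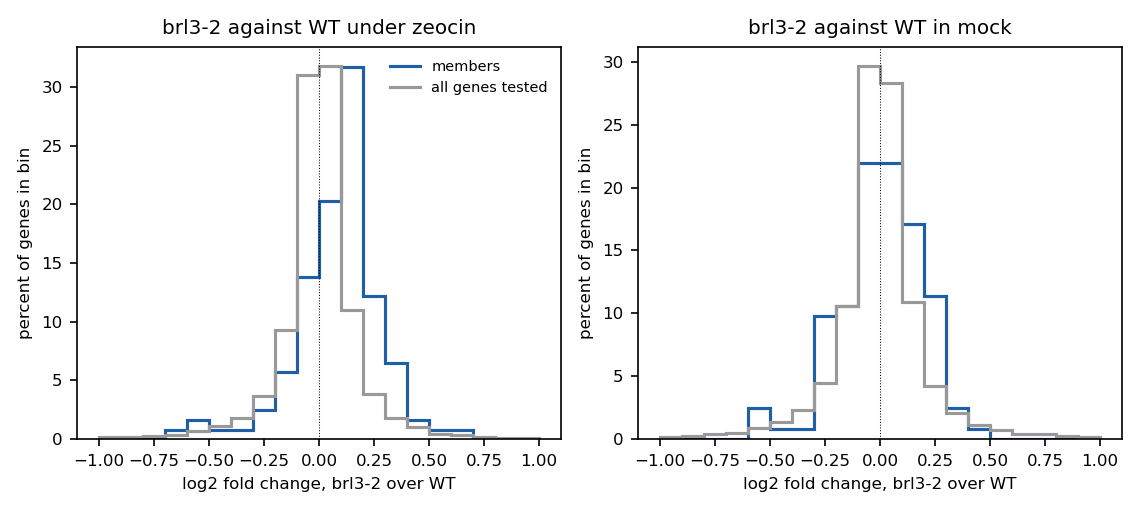
Lines give the percent of genes in bins of 0.1 of the log2 fold change of brl3-2 over WT, under zeocin on the left and in mock on the right, for the 123 members in blue and all 19437 genes tested in grey, limited to −1 to 1. The members lie to the right of all genes under zeocin, with a median of 0.12 against 0.00, and near them in mock, with a median of 0.01.

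The members with the smallest unadjusted p came from several roles. UBP21 stood 0.28 ± 0.07 (SE) higher in brl3-2 on the log2 scale, AT5G66800 0.64 ± 0.17 and CLE17 0.50 ± 0.14. Their unadjusted p from the edgeR fit over all genes was 0.0024, 0.0034 and 0.0044. GC4 stood 0.21 ± 0.06 higher and HAM3 0.21 ± 0.07, followed by AT2G43480 at 0.47 ± 0.16, AT3G15240 at 0.36 ± 0.12, AT4G27050 at 0.22 ± 0.07, AT1G80850 at 0.33 ± 0.12 and ASY3 at 0.27 ± 0.10. The transcription genes AT1G06070 (0.15 ± 0.06), TFIIB (0.18 ± 0.07) and AT3G46600 (0.19 ± 0.08) were also among the 20, as were EXPA14 (0.44 ± 0.19), FZR2 (0.25 ± 0.11) and VAMP728 (0.33 ± 0.15). DLAH was the 1 of the 20 that stood lower in brl3-2, at −0.68 ± 0.25. Each had an edgeR adjusted p of 1 over all genes tested.

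The shift under zeocin was also seen in zeocin-responsive genes outside the band. Of the 131 genes over the band 93 stood higher in brl3-2 (71.0%), with a median log2 difference of 0.09 and 19 genes at an unadjusted edgeR p under 0.05 (14.5%). Of the 631 genes that lay apart with under 2-fold changes 459 stood higher (72.7%), with a median of 0.05 and 25 genes at that p (3.96%). In mock, too, more of these genes stood higher in brl3-2, 57.3% of those over the band and 60.5% of the 631, against 48.9% of all genes. No difference between these sets was tested, and nothing here is called particular to the 123 members. The difference of the zeocin responses between genotypes was called for 0 of 123 members and 0 of 19437 genes (0%) by edgeR and for 0 genes by DESeq2. At an unadjusted p under 0.05 stood 1 member, AT3G15240 (log2 0.45 ± 0.17, SE, edgeR unadjusted p = 0.022), and 0.998% of all genes. The difference was positive for 95 members (51.4% of all genes), but the band bounds how far the responses can diverge.

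The palindrome shown for 6 members was present in 21.1% of the members' windows (26 of 123; exact 95% binomial interval 14.3% to 29.4%, counting error only). It was present in 35.9% of the windows of genes over the band, in 15.5% of those of genes that lay apart with under 2-fold changes, and in 11.7% of all 33009 windows of genes in the table. The share was thus highest for the genes over the band, lower for the members and lowest for all genes. Of the 27 copies in members 13 started at −250 to −101, 11 at −100 to −1 and 3 after the gene start, the last in TEJ, GSTU25 and GSTU22. By role, 5 of the 13 transport and detoxification members held it, 4 of the 11 wall and growth members, 3 of the 4 traffic and phloem members (GC4, SEOR1 and VAMP728), 3 of the 18 transcription members (DREB2C, TFIIB and WRKY50), 2 of the 10 genome maintenance members (RAD54 and TEJ) and 1 of the 4 cycle genes (KRP6).

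Motifs of other factors were counted in the same windows. A W box (TTGACC or TTGACT) was present in 39.0% of the members' windows (48 of 123), against 31.7% of all windows. WRKY33 and WRKY25 held one and WRKY50 did not. The core of the mitosis-specific activator element (AACGG) was present in 22.8%, against 24.5% of all windows, and in 32.1% of those over the band. The G box (CACGTG) was present in 6.50%, against 7.05%, and the GCC box (GCCGCC) in 1.63%, against 2.61%. An E2F core (TTCCCGC or TTGGCGC) was present in 2 members, ASY3 and TZP (1.63%), against 2.35% of all windows and 6.87% of those over the band. Each motif was counted on both strands, copies of different motifs may overlap, and a match is a string of letters and not a measured binding site.

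**Figure D5:**
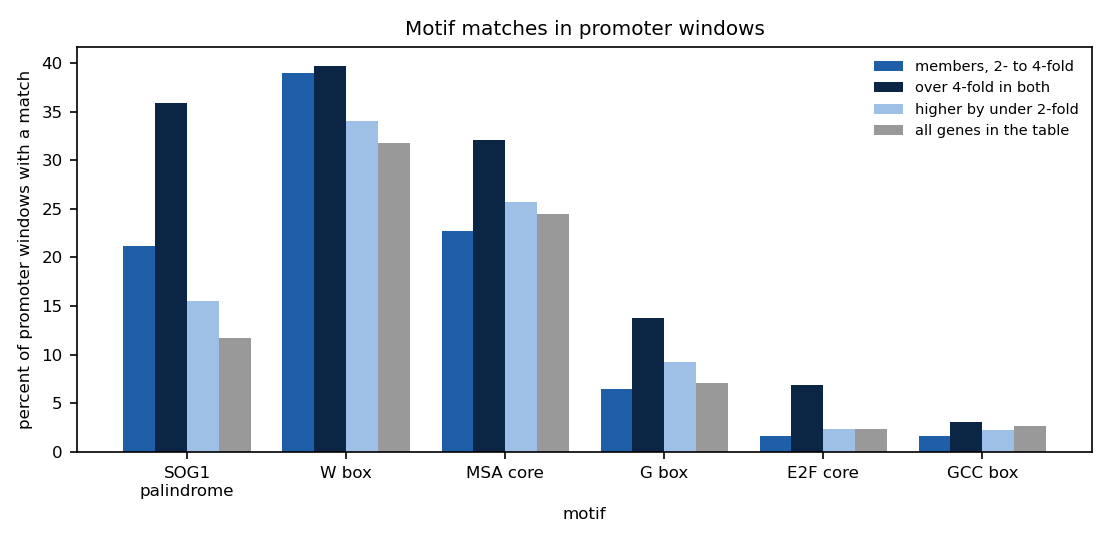
Bars give the percent of promoter windows with at least 1 match on either strand for 6 motifs, for the 123 members, the 131 genes over 4-fold in both genotypes, the 631 genes higher by under 2-fold and all genes in the table. The SOG1 palindrome is in 21.1% of the members' windows, 35.9% of those over the band, 15.5% of those under it and 11.7% of all.

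The members were spread over the genome. Chromosome 1 held 35 (28.5%, against 26.4% of all genes tested), chromosome 2 held 12 (9.76%, against 15.1%) and chromosome 3 held 20 (16.3%, against 19.9%). Chromosome 4 held 20 (16.3%, against 15.2%) and chromosome 5 held 36 (29.3%, against 23.4%). All 123 are protein coding. Their median exon length was 1782 bases, against 1778 for all genes tested, and their median exon number 3, against 5, as it was 3 for the genes over the band. A single pair of members lay side by side, AT1G23000 and LPR1, on the same strand with 1943 bases between them. A gene over the band was the next neighbour of 6 members, while 0.843% of all genes tested had one. AT3G07810, an RNA-binding protein gene at 2.55-fold in brl3-2 and 2.61-fold in WT, lies divergent from the thymidine kinase gene TK1a, 1079 bases away, which was 98.8-fold higher in brl3-2 and 96.3-fold in WT. AT3G27640 lies divergent from SMR7, 674 bases away, which was 413-fold higher in brl3-2 and 512-fold in WT.

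RFC1 and AT5G22020 share a strand, with 193 bases between them, as do HTR11 and AT5G65360, with 33, and AT2G47670 and AT2G47680, with 745. AT1G13340 overlaps the convergent meiotic gene AHP2 by 1151 bases, and AHP2 was 5.84-fold higher in brl3-2 and 5.87-fold in WT. AHP2 exons overlap 8.62% of the exon sequence of AT1G13340. For 9 members exons of the other strand overlap over 10% of the exon sequence. For 8 members over 10% of the transcript is near-identical to another transcript, on either strand. Both numbers include AT1G80850, AT5G18470, AT1G55760, AT5G49700, AT5G22660 and AT5G08050, and reads of these genes are uncertain. The search for near-identical stretches did not leave out overlapping neighbours, so for genes in both numbers the stretch can be the overlap itself. In AT1G55760 exons of the other strand overlap 18.9%, and 19.4% of the transcript is near-identical to AT1G55755.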

How the data were processed

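The deposited file holds raw counts, 1 column for each of 12 libraries, and all columns were used (0 left aside). The labels describe 24 samples, since each library was sequenced in 2 runs. The submitters' processing notes name HISAT2 2.1 and featureCounts 1.6.2 with the TAIR10 build, beside Trimmomatic 0.38, edgeR 3.34.1 and FastQC 0.11.2. Whether strand was used and whether runs were added is not given in the sources used here. Per the labels' protocols, polyadenylated RNA was made into stranded libraries. Totals of 32668516 to 73481046 counts limit precision, and p-values measure the spread between 3 replicates a group. The row without a gene name, at most 0.0039% of counts, was left out.

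CPM values were computed from column sums. edgeR 4.0.16 (R 4.3.3) kept 19437 genes with filterByExpr (minimum count 10, minimum total 15) and, with TMM scaling and 1 coefficient per group, tested genotype, zeocin and interaction contrasts by the two-sided quasi-likelihood test with Benjamini-Hochberg adjustment over all of them. A standard error was taken as |log2 change| over the root of the F statistic. The fit was tested on simulated data. DESeq2 1.42.0 was an alternative, beside other scalings and filters, fits on the groups compared and single libraries left out. Gene names, positions and promoter windows come from RefSeq's TAIR10.1 genome and annotation, matched for 123 of 123 members. Near-identical stretches were found with blastn 2.17.0 (at least 95% identity over 75 bases) against all other transcripts, on either strand, with overlapping neighbours not left out.

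The members, the 15 pathway lists (253 entries, of which 5 were dropped for a symbol that disagreed), the marker lists and the motifs were chosen with earlier results of these data known. Genes were named by a rule: BRL3, every member in a pathway list, up to 5 members of each of 12 product classes with the highest zeocin CPM, the 3 nearest to each edge of the band on either side, and up to 5 with the widest gap between treatments. Roles were assigned, and other members named, after their values were seen.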

Additional observations from a re-analysis of the deposited data

How the results depend on the processing

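The rule gave 116 to 128 members with single libraries left out, 134 with TMM-scaled CPM (120 of the 123 shared), 129 with DESeq2 size factors (121 shared), 133 and 106 with a minimum of 1 and 5 CPM, 126 without the demand that treatments lie apart, and 121 without both WT libraries numbered 3 (108 shared). The numbers of members called for genotype or for the difference of responses were 0 in every alternative run. The fit on the groups compared was not run for that difference, since it uses all 4 groups. With single libraries left out, 58 to 74 members stood higher in brl3-2 in mock and 77 to 107 under zeocin. The number of members at an unadjusted edgeR p under 0.05 under zeocin was 10 to 24 with single libraries left out and 14 without both WT libraries numbered 3. The cause was not tested. For zeocin against mock 112 to 122 members were called in brl3-2 and 116 to 122 in WT with single libraries left out, and 102 in WT in the fit on the groups compared.

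Replicate numbers were not used to pair the samples in the main fit, because no comparison had all 3 pair correlations above 0.1. For brl3-2 against WT in mock the correlations were 0.288, 0.095 and 0.399. Between 2 and 5 of 6 samples correlated best with their own number, 5 in that comparison, so some pairing is not excluded. With the replicate number as a block, 121 members in brl3-2 and 123 in WT were called for zeocin, 0 for either genotype comparison, and 25 stood at an unadjusted p under 0.05 for brl3-2 against WT under zeocin.

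The share of members with the SOG1 palindrome was 17.9% in upstream bases alone, against 9.69% of all windows, and 18.7% among members under TMM scaling. Counting protein-coding genes as neighbours, 4 members lay beside a member instead of 2, since AT5G51730 and AT5G51740 (3093 bases apart) then count as next to each other. Under both other scalings the folds of named genes changed by less than their replicate spread (1 SD) in 216 of 216 cases. Even so, the brl3-2 fold of ASY3 was 4.07 with TMM and 4.05 with DESeq2 size factors and that of NAC053 4.01 with TMM, all outside the band. Members near 2 CPM rest on few reads, and folds close to 2 or 4 can leave the band.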
